A study of Homo sapiens with 6 samples.

Results

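Probes for 9 genes of the MYC network, of STAT3 signalling and of RAC1 were examined in REH cells. REH is an established human cell line from an acute lymphoblastic leukemia of B-cell precursors, in which a translocation has joined ETV6 to RUNX1. The genes were MYC, MYCN, MAX, MXD4, MXI1, MNT, STAT3, SOCS3 and RAC1. Their probes were chosen by name alone, as every probe of the Agilent catalogue whose RefSeq accession belongs to one of these genes. This gave 16 of the 34134 catalogue probes on the array, for 9 of the 19721 genes they name. A total of 15 probes from 8 genes stood over background often enough to be tested, and the probe for SOCS3 did not. All 6 samples were REH cells transduced with a lentiviral short hairpin RNA (shRNA). In 3 of them the shRNA was directed at the fusion (knockdown), and in the other 3 it was non-targeting (control), and the labels give both groups replicate numbers from 1 to 3. Per the study's methods, the hairpin acts on the ETV6 portion of the fusion, REH cells have lost their other ETV6 allele, the control hairpin was a second ETV6 hairpin that did not hit the fusion transcript, and transduced cells were sorted for GFP. A single cell line and a single active hairpin were used.

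MYC and MYCN are transcription factors that bind E-box sequences together with their partner MAX and promote growth and ribosome production. MXD4, MXI1 and MNT bind the same sites with MAX and repress, so that the balance between the MYC and the MXD proteins sets the output of shared target genes. STAT3 is a transcription factor activated by JAK kinases downstream of cytokine receptors, and SOCS3 is its target and feedback inhibitor. RAC1 is a small GTPase that drives actin remodelling and cell migration.

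First, the promoters of these genes were searched for the letters that such factors are known to bind. Windows of 250 bases before the transcription start were read from RefSeq promoter sequences on GRCh38.p14, where 7 of the genes had 11 windows, and MYC and RAC1 were not in the table. The E-box CACGTG was found in 2 of the 11 windows, at MXD4 and MNT. Of all 35116 promoter windows of the same length, 6.34% held it. The RUNX letters TGTGGT or ACCACA, which are the same site on either strand, were found in 1 window, the outermost of the MXI1 starts, against 11.0% of all windows. The STAT letters TTCNNNGAA were found in 0 of the 11 windows, against 6.57% of all. Each of the E-box and STAT letters reads the same on both strands, and no match overlapped another. The 3 windows with a match are shown because they belong to the 3 MAX partners that repress, with the matched letters in capitals, in the direction of transcription. A match is a description of the letters and not evidence of binding. The MXD4 window lies on the minus strand at chr4:2262110-2262359, with the match starting 238 bases before the start, the MNT window on the minus strand at chr17:2401061-2401310, with the match at 193 bases, and the MXI1 window on the plus strand at chr10:110207355-110207604, with the match at 172 bases.
MXD4: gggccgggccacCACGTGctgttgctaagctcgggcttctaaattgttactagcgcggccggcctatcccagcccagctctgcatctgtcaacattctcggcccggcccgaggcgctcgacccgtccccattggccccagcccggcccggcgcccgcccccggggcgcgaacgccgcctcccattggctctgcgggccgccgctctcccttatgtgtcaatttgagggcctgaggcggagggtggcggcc
MNT: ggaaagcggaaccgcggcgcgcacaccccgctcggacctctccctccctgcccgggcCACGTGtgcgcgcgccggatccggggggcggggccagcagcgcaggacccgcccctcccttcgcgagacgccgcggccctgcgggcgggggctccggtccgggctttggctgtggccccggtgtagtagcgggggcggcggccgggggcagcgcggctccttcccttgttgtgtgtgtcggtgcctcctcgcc
MXI1: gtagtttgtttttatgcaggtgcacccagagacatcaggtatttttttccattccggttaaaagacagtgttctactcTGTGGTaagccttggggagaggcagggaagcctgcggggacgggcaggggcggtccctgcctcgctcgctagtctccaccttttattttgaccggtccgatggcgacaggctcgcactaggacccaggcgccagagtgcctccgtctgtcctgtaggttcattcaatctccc

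Values below are normalized intensities on a generalised log2 scale (glog2), which approaches log2 for bright probes and compresses dim ones. A probe is said to be called when its adjusted p from limma, taken over all 27490 retained probes, was under 0.05. By the scanner's flag, 47.56% to 52.54% of the probes on an array stood well above background, array correlations ran from 0.986 to 0.996 across probes, and the median SD within a group was 0.150. ETV6, the targeted gene, was measured by 1 probe above background on all arrays (A_33_P3356325). It read 7.91, 8.05 and 8.37 in the control and 7.49, 7.45 and 7.28 in the knockdown samples, a difference of -0.70 ± 0.14 (SE, n = 3 per group) with a limma adjusted p of 0.0513. Where this probe lies relative to the fusion was not analysed here. The study itself reports silencing of the fusion, with a Western blot of its protein and RT-qPCR of its transcript. Of 11 B precursor markers, 10 were above background on all 6 arrays, VPREB1 being the exception. CD3E and CD3G of the T cell, ELANE of the myeloid and HBB of the erythroid markers were not above background on any array, whereas CD3D, CD4 and CD8A, CD14, CSF1R, ITGAM and MPO, and ALAS2 and KLF1 were on all.

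Next, the knockdown and control samples were compared to ask whether these genes change when the fusion is silenced. None of the 15 member probes was called by limma, against 1.74% of all retained probes. At an unadjusted p under 0.05 the member count was also 0, against 12.5% of all. Differences ran from -0.32 to 0.32 with a median of -0.09, and 11 probes were lower and 4 higher. Over all retained probes the median difference was -0.002. The size of the differences was also close to the background, with a median absolute difference of 0.13 for the members and 0.12 for all probes. With a replicate block, which takes the numbers to pair the samples, 0 member probes were called and 2 had an unadjusted p under 0.05, against 3.79% and 18.8% of all.

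**Figure D1:**
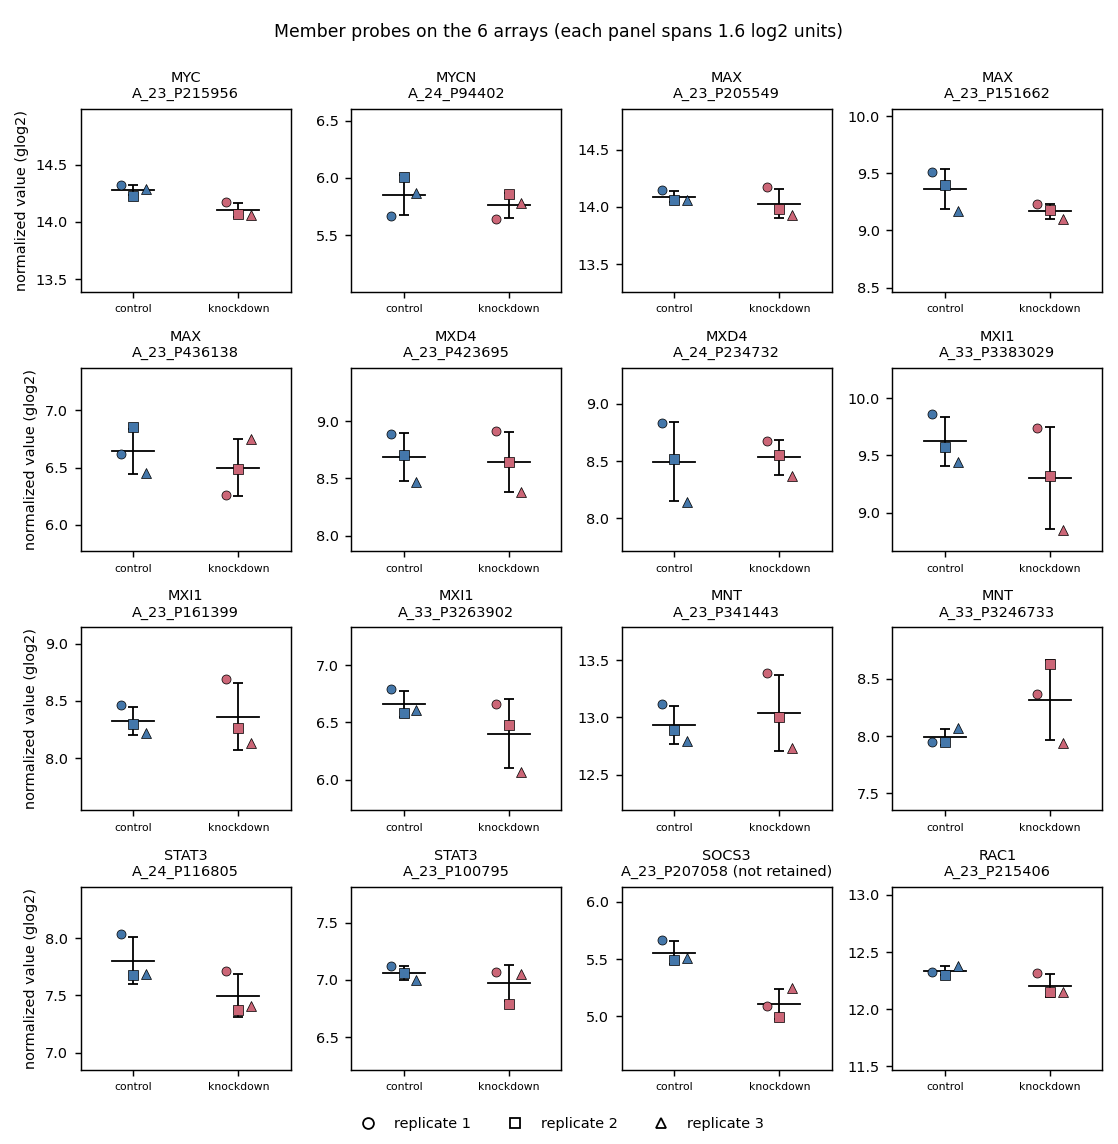
Normalized values (glog2, vertical axis) of the 16 member probes in the 3 control and 3 knockdown samples, with 1 marker shape per replicate number, the group mean as a horizontal line and the SD as an error bar. All panels span 1.6 log2 units, and the control and knockdown points are apart without overlap for MYC and for SOCS3, the probe that was not retained.

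MYC (A_23_P215956, NM_002467) was bright in every sample. It read 14.32, 14.23 and 14.29 in the control and 14.17, 14.07 and 14.06 in the knockdown samples. Every knockdown value lay below every control value, which was true of 1 of the 15 member probes and of 9.87% of all probes. Mean values were 14.28 ± 0.05 and 14.10 ± 0.06 (SD, n = 3), and the difference of -0.18 ± 0.09 (SE) corresponded to a 1.13-fold lower level. Its 95% confidence interval ran from -0.39 to 0.03, and the limma adjusted p was 0.483. An exact two-sided permutation test gave p = 0.1, which is the smallest it can give for 3 against 3. Within the replicate numbers the difference was -0.16, -0.16 and -0.22. Its direction was the same under 15 of 16 alternatives and turned to 0.14 with scaling on the spike-in probes, where the median of all probes itself moved to 0.32. MYCN (A_24_P94402, NM_005378), the family member best known from neural tumors, was near background. It read 5.67, 6.01 and 5.87 in the control and 5.64, 5.86 and 5.78 in the knockdown samples, and was above background on 4 of the 6 arrays. The groups overlapped, with a difference of -0.09 (95% confidence interval -0.37 to 0.18, limma adjusted p = 0.809).

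MAX, the partner that the MYC proteins and these repressors share, was measured by 3 probes that were designed on different transcripts. The probe on NM_145113 (A_23_P205549) read 14.15, 14.06 and 14.06 in the control and 14.17, 13.98 and 13.93 in the knockdown samples. The probe on NM_197957 (A_23_P151662) read 9.51, 9.40 and 9.17 against 9.23, 9.18 and 9.10, and that on NM_145114 (A_23_P436138) read 6.62, 6.85 and 6.45 against 6.26, 6.49 and 6.75. Control and knockdown values overlapped for each. Differences were -0.07, -0.19 and -0.14, and the widest of their 95% confidence intervals ran from -0.50 to 0.22. Limma adjusted p-values were 0.838, 0.556 and 0.76.

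The MAX partners that repress did not share a direction in this comparison. MXD4, a MAD family repressor, was measured by 2 probes, of which A_23_P423695 read 8.89, 8.70 and 8.47 in the control and 8.91, 8.64 and 8.38 in the knockdown samples. The other MXD4 probe (A_24_P234732) read 8.83, 8.52 and 8.14 against 8.68, 8.55 and 8.37. Both sets of groups overlapped, with differences of -0.04 and 0.04 and 95% confidence intervals from -0.42 to 0.34 and from -0.38 to 0.45 (limma adjusted p = 0.943 and 0.956). MXI1, also known as MAD2, had the member probe with the lowest difference, A_33_P3383029 on NM_130439. It read 9.86, 9.57 and 9.44 in the control and 9.74, 9.32 and 8.85 in the knockdown samples. The groups overlapped, with a difference of -0.32 ± 0.22 (SE, 95% confidence interval -0.83 to 0.19, limma adjusted p = 0.612). Within the replicate numbers it was -0.12, -0.25 and -0.59, and the SE with the replicate block was 0.11 (limma adjusted p = 0.21). A second probe on the same transcript (A_23_P161399) gave a difference of 0.03, and a probe on NM_005962 (A_33_P3263902) gave -0.26, with limma adjusted p-values of 0.955 and 0.562. Hence probes of MXI1 differed in sign.

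MNT, a larger repressor that opposes MYC in most tissues, was measured by 2 probes on NM_020310. A_23_P341443 read 13.12, 12.89 and 12.79 in the control and 13.39, 13.00 and 12.73 in the knockdown samples, and A_33_P3246733 read 7.95, 7.95 and 8.07 against 8.37, 8.63 and 7.94. Knockdown replicate 3 was the lowest of the 6 samples for both probes. Differences were 0.11 (95% confidence interval -0.29 to 0.51) and 0.32 (-0.07 to 0.71), and limma adjusted p-values were 0.848 and 0.5.

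STAT3 was measured by 2 probes on NM_213662. A_24_P116805 read 8.04, 7.68 and 7.69 in the control and 7.71, 7.37 and 7.41 in the knockdown samples, so that knockdown replicate 1 lay among the control values. Each knockdown sample was nevertheless lower than the control sample of its own number, by -0.32, -0.31 and -0.28. The difference was -0.31 ± 0.14 (SE, 95% confidence interval -0.64 to 0.02), with a limma adjusted p of 0.437, or 0.121 with the replicate block. The other probe (A_23_P100795) read 7.12, 7.06 and 7.00 against 7.07, 6.79 and 7.05. Its groups overlapped, and its difference was -0.09 (-0.35 to 0.17, limma adjusted p = 0.796). The signal of SOCS3 (A_23_P207058, NM_003955) was close to background throughout. It read 5.67, 5.49 and 5.51 in the control and 5.09, 4.99 and 5.25 in the knockdown samples. By the scanner's flag it was well above background in control replicate 1 alone, so that in both groups most values were not above background and neither group mean is a measured level. Every knockdown value lay below every control value (exact permutation p = 0.1, the smallest possible). In a fit without a filter the difference was -0.45 ± 0.11 (SE), the limma adjusted p was 0.302, and the direction was the same under 12 of 12 alternatives, with none called. Over these alternatives the difference ran from -1.34 to -0.13, so its size depended on the setting.

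RAC1 (A_23_P215406, NM_018890) was among the bright probes in every sample. It read 12.33, 12.30 and 12.38 in the control and 12.32, 12.15 and 12.15 in the knockdown samples. Knockdown replicate 1 lay among the control values and the other knockdown samples below them. The difference was -0.13 (95% confidence interval -0.35 to 0.09, limma adjusted p = 0.639).

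Next, the replicate 1 samples were compared with those of replicates 2 and 3, with the group as a term. This comparison was made because replicate 1 was known from earlier results of these data to stand apart. None of the 15 retained member probes was called by limma, against 5.66% of all retained probes, but 7 had an unadjusted p under 0.05, against 23.9% of all. Differences ran from -0.22 to 0.50 with a median of 0.16, and 13 probes were higher and 2 lower in replicate 1. The median over all probes was 0.006. Of the retained member probes, 9 had both replicate 1 samples above the rest and 1 had both below, against 15.2% and 13.6% of all probes. The 9 probes belong to MAX, MXD4, MXI1, MNT and STAT3 and the 1 to MYCN, and several share a gene, so they are not independent.

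**Figure D2:**
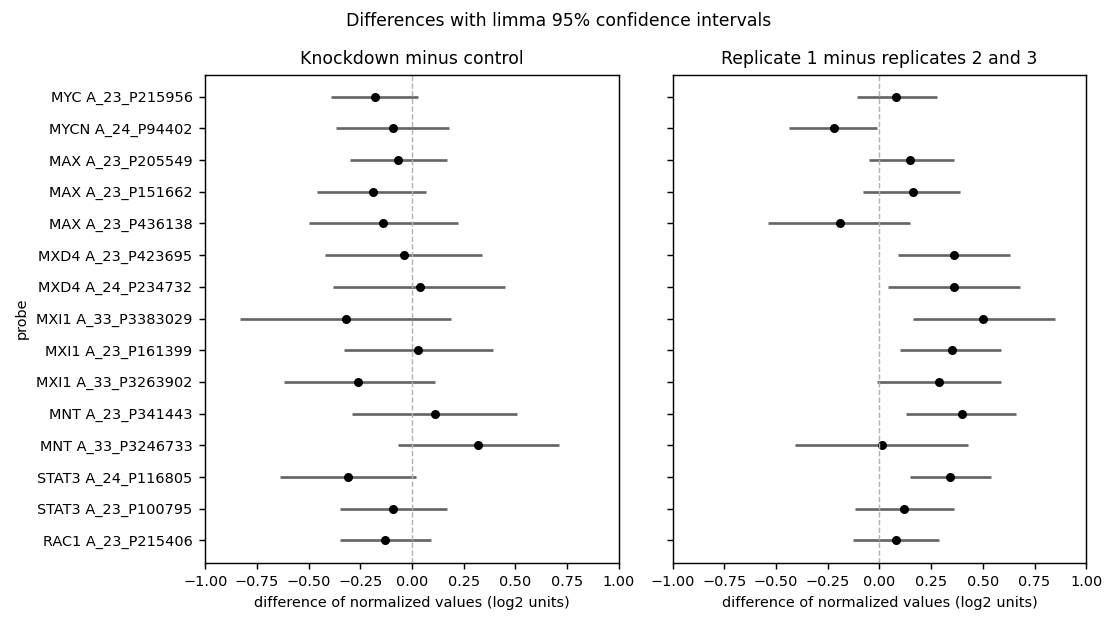
Differences of normalized values (log2 units, horizontal axis) for the 15 retained member probes, with limma 95% confidence intervals as bars, for knockdown minus control on the left and for replicate 1 minus replicates 2 and 3 on the right. All intervals on the left include 0, whereas 7 on the right do not, 6 of them on the higher side.

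The 5 largest member differences in replicate 1 belonged to probes of the repressors MXI1, MNT and MXD4. MXI1 (A_33_P3383029) had a mean of 9.80 in replicate 1 and of 9.30 in replicates 2 and 3, a difference of 0.50 ± 0.15 (SE, 95% confidence interval 0.16 to 0.85, limma adjusted p = 0.0932). The second MXI1 probe on the same transcript (A_23_P161399) differed by 0.35 (0.10 to 0.59, limma adjusted p = 0.0994), and the third (A_33_P3263902) by 0.29 (-0.01 to 0.59, limma adjusted p = 0.227). All 3 had both replicate 1 samples above the other 4. Both MXD4 probes differed by 0.36, with intervals from 0.09 to 0.63 and from 0.04 to 0.68 (limma adjusted p = 0.118 and 0.167). For MNT, A_23_P341443 differed by 0.40 ± 0.11 (0.13 to 0.66, limma adjusted p = 0.087), while A_33_P3246733 differed by 0.01 (limma adjusted p = 0.979). With an intensity trend and a robust prior, MXI1 A_33_P3383029 and MNT A_23_P341443 were called (limma adjusted p = 0.0473 and 0.0301), when 9.56% of all probes were. MNT A_23_P341443 was also called after normexp and quantile normalization (limma adjusted p = 0.049), when 8.47% of all probes were. Over all alternatives their limma adjusted p-values ran from 0.0473 to 0.607 for MXI1 and from 0.0301 to 0.747 for MNT.

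STAT3 (A_24_P116805) came closest to the threshold, at 7.88 in replicate 1 against 7.54 in the others. The difference of 0.34 ± 0.08 (SE, 95% confidence interval 0.15 to 0.54) had a limma adjusted p of 0.0593, and it measured 0.35 within the control and 0.33 within the knockdown samples. The second STAT3 probe (A_23_P100795) differed by 0.12 (-0.12 to 0.36, limma adjusted p = 0.536). MYCN was the one member probe with both replicate 1 samples below the other 4, at a difference of -0.22 (-0.44 to -0.01, limma adjusted p = 0.191). MYC and RAC1 both differed by 0.08, with limma adjusted p-values of 0.598 and 0.633. The MAX probes differed in sign, at 0.15 (A_23_P205549), 0.16 (A_23_P151662) and -0.19 (A_23_P436138), with limma adjusted p-values of 0.323, 0.389 and 0.466. SOCS3 differed by 0.07 in the fit without a filter (limma adjusted p = 0.841). Genes of the amino acid stress response moved with replicate 1 as well. Their mean value was 11.36 to 11.38 in the replicate 1 samples and 9.89 to 10.20 in the others, and 16 of 20 probes from 14 of 16 genes were called higher, among them TRIB3 (2.95 ± 0.13) and ASNS (2.10 ± 0.11; SE, limma adjusted p = 0.000191 and 0.000333). Among the lineage markers, 1 of 4 retained myeloid probes was called higher in replicate 1 (ITGAM, 0.611, limma adjusted p = 0.0265), and 2 of 15 B precursor probes were called lower (IGLL1, -0.573, and MME, -0.515, limma adjusted p = 0.0194 and 0.0287). These were called under 7, 9 and 8 of 16 alternatives. With single arrays left out, the ITGAM and MME calls held without control replicate 3 only, and the IGLL1 call without control replicate 3 or knockdown replicate 3 (limma adjusted p otherwise 0.0523 to 0.205, 0.0562 to 0.184 and 0.0523 to 0.151). The mean value of the B precursor markers was 12.59 to 12.97 in the replicate 1 samples and 12.68 to 12.88 in the others, and that of the myeloid markers 8.73 to 9.07 and 8.35 to 9.05. The part of the stress response and of these markers in the member values was not tested. Finally, whether the knockdown difference itself depended on the replicate was tested as an interaction. None of the 15 member probes was called (limma adjusted p from 0.698 to 0.979, none with an unadjusted p under 0.05), against 0.418% of all probes called and 8.32% with such an unadjusted p.

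To place the members in their pathways, lists of partners, regulators and targets were described in the same fits, beside the 1.74% of all retained probes that were called and the 12.5% with an unadjusted p under 0.05 after knockdown. In the wider MYC, MAX and MLX network, 0 of 22 retained probes from 12 of 13 genes were called after knockdown, with 3 at an unadjusted p under 0.05 and a median of -0.05. The lowest p-values were those of the repressors MXD3 (A_33_P3297255, 0.33, limma adjusted p = 0.301) and MXD1 (A_23_P408094, -0.32, limma adjusted p = 0.34), whose other probes measured 0.149 and -0.079 (0.742 and 0.897). Among 17 probes for genes that control MYC, 1 was called and 2 had an unadjusted p under 0.05. FBXW7, the ubiquitin ligase subunit that marks MYC and other proteins for degradation, read 12.05, 11.85 and 11.79 in the control and 11.16, 10.70 and 10.79 in the knockdown samples. It fell by 1.01 ± 0.14 (SE, limma adjusted p = 0.0136), and the groups were apart by more than their spread. Leaving out control replicate 2 ended the call (limma adjusted p = 0.064), as did leaving out either of knockdown replicates 2 and 3 (0.0645 and 0.0781) or adding the slide row to the fit (0.18). All knockdown arrays and control replicate 3 lay in 1 row of the slide and the other control arrays in another. The other probes of that list included the corepressor SIN3A at 0.24 (limma adjusted p = 0.326), and the list median was 0.07.

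Of 38 probes for 30 MYC targets, 1 was called after knockdown and 4 had an unadjusted p under 0.05, with a median of 0.03 and 15 probes lower and 23 higher. CCND2, which encodes a G1 cyclin, fell by 2.33 ± 0.38 (SE, limma adjusted p = 0.025). It read 10.05, 9.32 and 8.95 in the control and 7.93, 6.70 and 6.69 in the knockdown samples, so that replicate 1 was the highest in both groups. The call was lost without control replicate 1 or 2 (limma adjusted p = 0.0589 and 0.0956) and without knockdown replicate 2 or 3 (0.109 and 0.124). It was also lost with the slide row in the fit (0.289), without the filter (0.0841), with 75th percentile scaling (0.0607) and with an intensity trend and robust prior (0.0766). TERT, the catalytic subunit of telomerase, read 9.90, 10.82 and 10.65 against 11.28, 11.97 and 11.79. Its difference of 1.22 ± 0.26 (SE) was not called in the fit without a block (limma adjusted p = 0.0751). It was called with the replicate block (0.00283), with spike-in scaling (6.61e-09) and without knockdown replicate 1 (0.0448). The nucleolar and ribosome production genes that make up most of this list were not called.

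Among 29 probes for 22 genes of the JAK and STAT3 pathway, 2 were called, both lower, 10 had an unadjusted p under 0.05, and the list median was -0.09. SOCS2, a feedback inhibitor of cytokine receptors, read 13.34, 13.08 and 13.12 in the control and 11.52, 11.23 and 11.34 in the knockdown samples. It fell by 1.82 ± 0.12 (SE, limma adjusted p = 0.000588), or 3.52-fold, and it was called under all 16 alternatives. STAT5A, a transcription factor that also acts downstream of JAK kinases, read 8.55, 8.87 and 8.70 against 8.13, 7.88 and 7.98, and fell by 0.71 ± 0.12 (SE, limma adjusted p = 0.0287). All 3 knockdown values of each lay below all control values, but the STAT5A call was lost without control replicate 2 or 3 (limma adjusted p = 0.138 and 0.104) or knockdown replicate 2 or 3 (0.124 and 0.122). It was also lost with the slide row in the fit (0.259), without the filter (0.0911), with 75th percentile scaling (0.0541) and with spike-in scaling (-0.392, limma adjusted p = 0.216). The related gene STAT5B went the other way, at 0.403 (limma adjusted p = 0.103, or 0.0724 with the replicate block). Of the 29 probes of this list, 20 were lower and 9 higher. With the replicate block CISH, another cytokine inhibitor that was picked out after its value was seen, was called in addition (-0.475, limma adjusted p = 0.0476). Of 18 probes for 16 STAT3 targets, a list that includes MYC, 0 were called after knockdown and 2 had an unadjusted p under 0.05. They were FOS at -0.55 (limma adjusted p = 0.0747) and NFIL3 at 0.47 (0.0854, or 0.0445 with the replicate block).

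**Figure D3:**
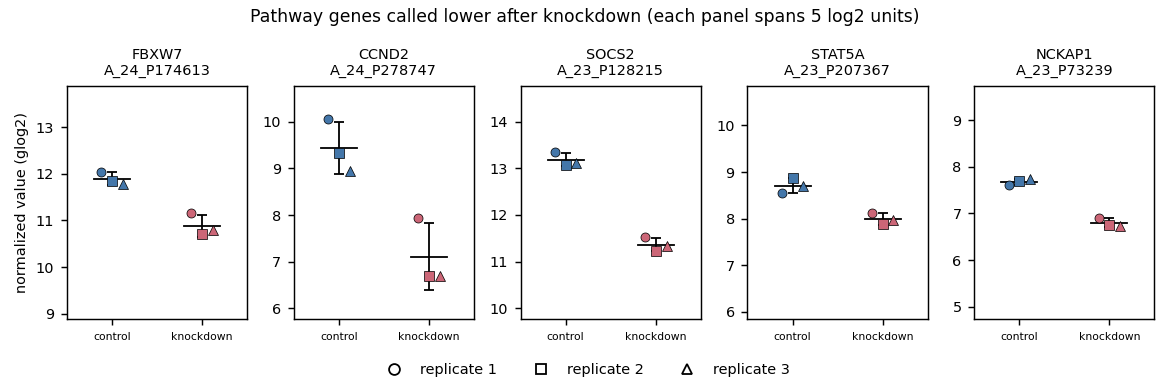
Normalized values (glog2, vertical axis) of the 5 pathway genes called lower after knockdown, in the 3 control and 3 knockdown samples, with the group mean as a line, the SD as an error bar and 1 marker shape per replicate number. Each panel spans 5 log2 units, and in each the knockdown points lie below the control points.

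For RAC1 and related small GTPases, 0 of 16 probes from 11 genes were called after knockdown, with 4 at an unadjusted p under 0.05. RHOB and RAC3, both relatives of RAC1, measured 0.55 (A_33_P3398862) and 0.47, which did not pass in the fit without a block (limma adjusted p = 0.206 and 0.286). They passed with the replicate block (0.0484 and 0.0499) and with spike-in scaling (0.00467 and 0.0131). The other RHOB probe (A_33_P3308446) measured 0.197 (limma adjusted p = 0.566, or 0.345 with the block). Of 36 probes for 29 RAC regulators and effectors, 1 was called and 7 had an unadjusted p under 0.05. NCKAP1, a subunit of the WAVE complex through which RAC1 acts on actin, read 7.61, 7.69 and 7.73 in the control and 6.91, 6.76 and 6.73 in the knockdown samples, and it fell by 0.87 ± 0.10 (SE, limma adjusted p = 0.00505). Every knockdown value lay below every control value, but a term for the slide row ended the call (limma adjusted p = 0.0511), as did spike-in scaling (-0.555, limma adjusted p = 0.105). The exchange factor VAV3 measured -0.53 (limma adjusted p = 0.0605). TIAM2, a RAC exchange factor picked out after its value was seen, was called with the replicate block (-0.614, limma adjusted p = 0.0215). MPO, a myeloid marker outside these lists, fell by 2.02 ± 0.16 (SE, limma adjusted p = 0.00107) in the same samples, and the mean value of the 4 retained myeloid markers was 8.96 to 9.07 in the control and 8.35 to 8.73 in the knockdown samples. The other 3 of these markers measured -0.053 (CSF1R), -0.128 (CD14) and 0.071 (ITGAM), with limma adjusted p-values of 0.923, 0.68 and 0.932, so MPO carried most of that difference. For the B precursor markers it was 12.59 to 12.68 and 12.87 to 12.97. Of their 15 probes, 0 were called in the fit without a block and 3 with the replicate block, all higher after knockdown, namely CD79B (0.55, limma adjusted p = 0.0367) and both IGLL1 probes (0.53 and 0.68, limma adjusted p = 0.0379 and 0.0132). The part of these markers in the other values was not tested. In the amino acid stress list, 0 of 20 probes were called after knockdown in the fit without a block, and 0 had an unadjusted p under 0.05. There DDIT4 measured 0.76 and VLDLR -0.22 (limma adjusted p = 0.57 and 0.6). With the replicate block 3 of the 20 probes were called, all higher, and 8 had an unadjusted p under 0.05. Of all retained probes, 3.79% were called with the block and 18.8% had such an unadjusted p. The called probes were those of DDIT4, TRIB3 (1.096) and ATF5 (0.588), with limma adjusted p-values of 0.0147, 0.00283 and 0.0354. Within the replicate numbers TRIB3 differed by 1.05, 1.09 and 1.15.

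The same lists were described for replicate 1, where 5.66% of all retained probes were called and 23.9% had an unadjusted p under 0.05. For the MYC targets, 4 probes of 3 genes were called, with TERT (-0.72) and PA2G4 (-0.52), a growth regulator of the nucleolus, lower and CCND2 (1.07) higher, at limma adjusted p-values of 0.0164, 0.031 and 0.00782. A total of 29 of the 38 probes were lower, with a median of -0.11. For the STAT3 targets, 5 probes of 4 genes were called, and all 5 were higher. They belonged to VEGFA, an angiogenic factor (1.50 and 1.36 for its 2 probes), CEBPB, a transcription factor that is also on the stress response list (1.40), ICAM1, an adhesion molecule (0.83), and BCL3, an NF-kB cofactor (0.42), at limma adjusted p-values of 0.0441 and 0.000771, 0.00132, 0.00505 and 0.0409. The VEGFA probes (A_23_P70398 and A_24_P12401) were well above background on 4 and 3 of the 6 arrays, so the size of their differences rests on values near background. The list median was 0.09. In the JAK and STAT3 pathway 0 probes were called and 6 had an unadjusted p under 0.05, with SOCS7 at 0.45 (limma adjusted p = 0.0717). Of the genes that control MYC, SIN3B was called (0.43, limma adjusted p = 0.0489) and the kinase PIM1 measured 0.33 (0.0711). In the MYC, MAX and MLX network 0 of 22 probes were called and 9 had an unadjusted p under 0.05, with MXD1 at 0.43 and 0.22 (0.062 and 0.223) and MXD3 at -0.35 and -0.20 (0.0714 and 0.268) for their 2 probes each. The GTPases RHOQ (0.55), RHOU (0.41) and RAC3 (-0.42) were called, although the other 2 RHOQ probes measured 0.148 and 0.192 (limma adjusted p = 0.358 for both), as were the exchange factors VAV1 (0.55) and TIAM1 (-0.39), with limma adjusted p-values of 0.0393, 0.0478, 0.0453, 0.0183 and 0.047. Of these genes, CEBPB was called under 16 of 16 alternatives, ICAM1 under 15, CCND2 under 13, TERT under 10 and VAV1 under 8. VEGFA was called under 5 with A_23_P70398 and under 16 with A_24_P12401, and the other genes under 2 to 6.

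**Figure D4:**
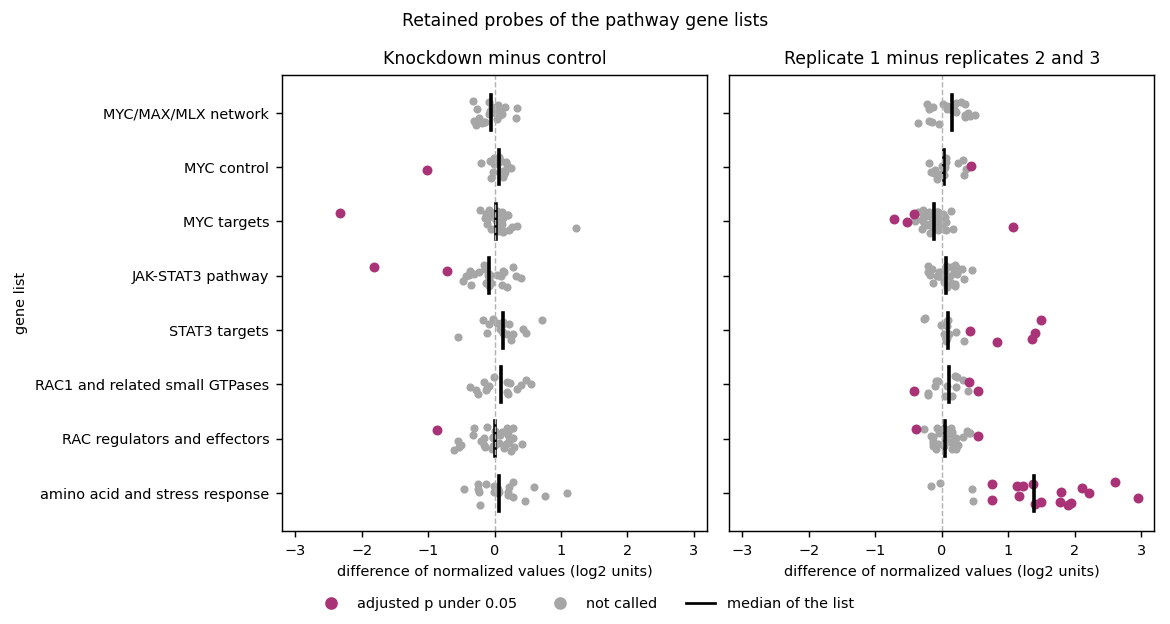
Differences of normalized values (log2 units, horizontal axis) of all retained probes of 8 gene lists, for knockdown minus control on the left and replicate 1 minus replicates 2 and 3 on the right, with called probes in colour and the list median as a line. After knockdown the called probes are the 5 lower genes FBXW7, CCND2, SOCS2, STAT5A and NCKAP1, whereas in replicate 1 the stress response list lies apart at a median of 1.39.

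Finally, the genes whose values were most like those of the members over the 6 arrays were listed among 17550 named probes. For MYC these were ASTN1, PLK2 and CAP2, with Pearson's r of 0.997, 0.996 and 0.994. For STAT3 (A_24_P116805) they were ZFAND3, HTATIP2 and LSMEM1 (0.996, 0.995 and 0.994), and for RAC1 they were IGSF10, PSD3 and NEMF (0.997, 0.989 and 0.989). These values describe 6 arrays that share a slide and the best match of many, and none of the 9 genes was called by limma in either comparison.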

How the data were processed

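Total RNA of 3 control and 3 knockdown samples was measured on 6 one-color Agilent arrays, all on 1 slide and 1 scan. Per the file headers, the authors extracted spot intensities with Feature Extraction 10.7.1.1 from an array designed on hg19. The deposited scanner files hold raw median intensities, local background and processed intensities, none normalized between arrays, beside other values, namely flags. The authors also deposited log2 values for 27869 probes, and the methods name VSN, background subtraction and a negative control filter. These correlated with the values used here at r from 0.99904 to 0.99969 per array, across probes. No column of the authors' own comparisons was used.

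Here the VSN model was written anew and fitted to raw median intensities, since no mean intensity column was in the files, leaving out spots with an outlier flag. No spot was saturated. Spots of a probe were averaged. A probe was retained if its normalized value was over 1.1 times the 0.95 quantile of the 308 normalized negative control spots on 2 of 3 arrays of a group (60%), which left 27490. Comparisons were two-sided and used lmFit and eBayes of limma 3.58.1 (R 4.3.3), with Benjamini-Hochberg adjustment over all retained probes. The replicate 1 comparison included the group. SEs and 95% intervals come from limma. Same-numbered control and knockdown arrays deviated together from their group means (r = 0.426, 0.287 and 0.204 over 27425 probes). Unlike-numbered arrays of replicates 2 and 3 did so too, at 0.187 (control 2 and knockdown 3) and 0.170 (control 3 and knockdown 2). The correlations thus set replicate 1 apart but barely separate replicates 2 and 3. The numbers were taken to pair the samples, and a replicate block was fitted as an alternative. On simulated data of 27425 probes with 200 changed for the knockdown comparison, 80.5% of changed probes were called and 4.73% of calls were unchanged probes. The planted changes were 1 or 2 log2 units up or down, with independent noise and no shared replicate or slide effect. Member differences after knockdown ran only from -0.32 to 0.32, so these shares do not tell how often changes of that size would be called. The number of arrays limits the precision.

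Catalogue probes were named through RefSeq accessions, which matched for 25728 of 34134 (75.4%). Different probes of a gene were kept apart. Named were all member probes, per pathway list and comparison up to 5 called genes with the largest differences or otherwise the lowest p-values, and the 3 genes most correlated with MYC, STAT3 and RAC1. The members, the gene lists and the replicate 1 comparison were chosen with earlier results of these data known. The study calls the samples biological triplicates, but its methods on the knockdown and the labels do not say that cultures were separate, so p-values measure the spread between these samples. Alternatives changed the normalization, filter, test, averaging of probes, slide row, replicate block and samples used. One erythroid marker is not reported here.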

Additional observations from a re-analysis of the deposited data

How the results depend on the processing

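Over all alternatives, the member probes kept their direction and their side of the threshold in 226 of 252 values for the knockdown and in 236 of 252 for replicate 1. None was called after knockdown, and 3 values were newly called in replicate 1, as given above. Deposited values gave 436 calls for the knockdown against 478 here. That count was 224 without a filter, 1041 with the replicate block, 227 with the slide row as a term, which leaves knockdown against control replicate 3 alone, and 1554 with spike-in scaling (218 lower and 1336 higher, against 352 and 126), and 191 to 553 when 1 array was left out. The block changed no member's call. For replicate 1, 1557 probes were called, 2627 with an intensity trend and robust prior, 764 with 75th percentile scaling (429 lower and 335 higher, against 555 and 1002), 141 without a filter, 297 without the group term, 784 with the slide row, 559 with spike-in scaling (267 lower and 292 higher), and 344 to 789 when 1 array was left out. Spike-in scaling moved the median of all probes to 0.318 for the knockdown and to -0.142 for replicate 1, and 75th percentile scaling to -0.075 for replicate 1. The cause of these changes was not tested.

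With spike-in scaling the knockdown difference turned to 0.139 for MYC, 0.228 for MYCN, 0.253, 0.128 and 0.175 for the MAX probes A_23_P205549, A_23_P151662 and A_23_P436138, 0.276 for MXD4 A_23_P423695, 0.060 for MXI1 A_33_P3263902, 0.011 and 0.229 for STAT3 A_24_P116805 and A_23_P100795, 0.188 for RAC1, 0.002 for MXD1 and 0.101 for VLDLR, all of them below the shift of the median. Deposited values gave 0.047 for MYCN and 0.043 for STAT3 A_23_P100795, and normexp with quantile normalization gave 0.033 for MYCN. The slide row gave 0.046 for MAX A_23_P436138 and 0.176 for MXD4 A_23_P423695, and 75th percentile scaling gave 0.012 for the latter. Averaging the probes of a gene gave -0.004 for MXD4 and -0.183 for MXI1, against the positive A_24_P234732 and A_23_P161399. With 1 array left out, MXD4 A_23_P423695 reached from -0.178 to 0.090, MXD4 A_24_P234732 from -0.144 to 0.202, MXI1 A_23_P161399 from -0.133 to 0.148, MNT A_23_P341443 from -0.067 to 0.260 and STAT3 A_23_P100795 from -0.140 to 0.002. For replicate 1, spike-in scaling gave -0.067 for MYC, -0.137 for MNT A_33_P3246733, -0.031 for STAT3 A_23_P100795, -0.068 for RAC1 and -0.074 for SOCS3. MNT A_33_P3246733 was -0.053 with 75th percentile scaling, -0.054 with normexp and from -0.148 to 0.149 with 1 array left out. MAX averaged over its probes gave 0.039, RAC1 ranged from -0.005, without knockdown replicate 1, to 0.166, and SOCS3 from -0.028, without control replicate 1, to 0.177. Among the pathway genes called after knockdown, FBXW7 was called under 12, CCND2 under 8, STAT5A under 8 and NCKAP1 under 14 of 16 alternatives, and with the slide row none of them was (limma adjusted p = 0.18, 0.289, 0.259 and 0.0511). Leaving out control replicate 2, knockdown replicate 2 or knockdown replicate 3 each ended the calls of FBXW7 and CCND2, with adjusted p from 0.064 to 0.124. NFIL3, DDIT4, TRIB3, CD79B and IGLL1, which were called with the replicate block, were also called with spike-in scaling. SOCS3 was not retained and had 12 alternatives, all without a filter.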
